A study of Mus musculus with 4 samples.

Results

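The comparison set liver of LASS2-/- mice fed chow against liver of wild-type (WT) mice fed chow, with 1 array in each group. Lass2 is the former name of Cers2, a ceramide synthase. The mice were male, their chow held 10% of calories from fat, and it was given from 3 weeks of age. The series has 4 arrays, 1 for each genotype on chow and on a high-fat diet (HFD, 60% of calories from fat), so this comparison used 2 of them. The labels give no strain, no age at sampling and no construction of the allele, and whether several mice were pooled for an array is not stated. The ratio of each gene was its log2 signal on the array labelled LASS2-/- chow minus that on the array labelled WT chow. A signal under the array's own median over all probe sets (6.17 for WT, 6.28 for LASS2-/-) was set to that median, the floor. Of 18193 named genes, 11862 reached the floor on at least 1 of the chow arrays and entered. For 1334 of them only 1 array reached the floor, and their ratios are bounds, written as "at least". Such a gene entered through that array alone, so it could reach 1.5-fold only on the side of that array. Because the floors differ, a bound near 0 can have the opposite sign to the signals. Sv2a, at 6.18 on WT and 3.50 on LASS2-/-, had a ratio of 0.10. Counts of genes above 0 include such bounds. With 1 array a group there is no replicate error, so values are given as folds without p-values, and "higher" and "lower" refer to the array labelled LASS2-/- chow.

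Ceramide synthases join a fatty acid to a sphingoid base, and each member of the family prefers acyl chains of a certain length. Cers2 makes ceramides with very long acyl chains and is the main ceramide synthase of the liver, where these lipids feed into sphingomyelin and glycosphingolipids. Its protein is also known to bind the c subunit of the vacuolar proton pump.

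The targeted gene did not differ in the direction of the labels by a clear margin. Cers2 had a log2 signal of 12.46 on the WT array and 12.32 on the array labelled LASS2-/-, a log2 ratio of -0.15, or 1.11-fold lower. It was read by 1 probe set, which was brighter than 96.5% of all probe sets on the WT array. The gene table does not say which part of the transcript that probe set reads or which part of the gene was altered, and the signal alone does not settle the genotype. Every direction below is therefore that of the array labelled LASS2-/- chow. The tissue and the scale were checked in the same arrays. Albumin (Alb) had log2 signals of 15.08 and 15.27, and of 13 hepatocyte markers that entered none was 1.5-fold apart. The 2%-trimmed means of the linear signals were 495.8 on both chow arrays, so the deposited values share 1 scale.

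Most genes had nearly the same signal on both arrays. The median log2 ratio was 0.01, 6179 genes (52.1%) had a ratio above 0, and 7562 (63.7%) lay within 1.2-fold. At least 2-fold higher were 145 genes, which is 1.22% of those tested, and at least 2-fold lower were 53, or 0.447%. At 1.5-fold the counts were 714 higher (6.02%) and 421 lower (3.55%). Of the 2-fold genes, 50 higher and 18 lower were bounds. Egr1 and Btg2 were the genes at least 4-fold higher, and Ss18l1, a bound, was the gene at least 4-fold lower. At the edge of the 2-fold threshold, Trib1 was 2.01-fold and Ten1 1.99-fold higher, and Sesn1 was 2.01-fold and Ddah2 1.99-fold lower.

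The excess of higher genes depended on the scaling. Setting the 2 arrays to equal medians moved the median ratio of all genes to -0.09, and the 2-fold counts became 104 higher and 96 lower. The share of higher genes among those 2-fold apart was 73.2% on the deposited scale, 52.0% with equal medians and 63.7% after quantile normalization. At 1.5-fold these shares were 62.9%, 41.2% and 55.1%. Ratios of dim genes were wider: from the dimmest to the brightest of 4 equal groups of genes the standard deviation of the ratio across genes was 0.462, 0.384, 0.282 and 0.222. In the dimmest group 94 genes were 2-fold higher and 25 lower, and in the brightest group 9 were higher and 1 was lower. A given fold therefore stands further from the bulk of genes when the gene is bright.

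**Figure D1:**
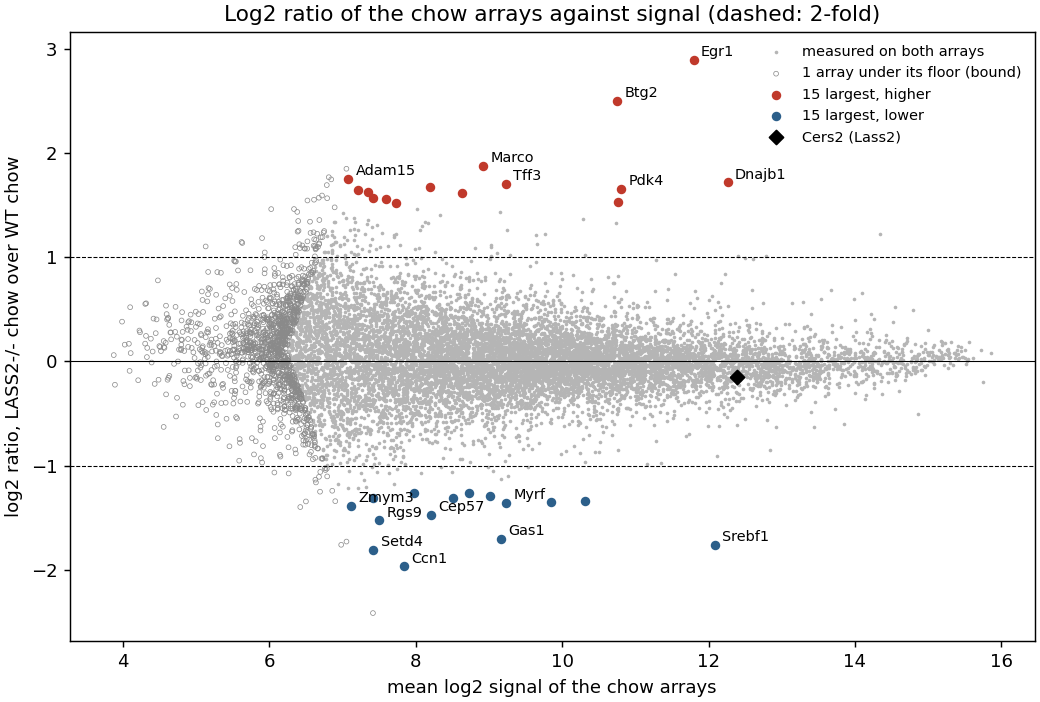
Log2 ratio of the array labelled LASS2-/- chow over the WT chow array (y axis, log2) against the mean log2 signal of the chow arrays (x axis) for the 11862 genes that entered, 1 point a gene. The spread narrows from dim to bright genes, and Egr1 at a log2 ratio of 2.89 and Btg2 at 2.50 stand above the rest.

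The gene with the highest ratio was Egr1, an immediate early transcription factor that is induced within minutes of growth factor, injury or stress signals. Its log2 signal was 10.35 on the WT array and 13.24 on the array labelled LASS2-/-, 7.42-fold higher. Btg2, an antiproliferative gene that is both an immediate early gene and a p53 target, went from 9.50 to 12.00, 5.66-fold higher, and its other probe set had a ratio of 1.84. Marco, a scavenger receptor of Kupffer cells that binds bacteria and particles, went from 7.98 to 9.86, 3.67-fold higher, with 1.69 at its other probe set. Dnajb1, the Hsp40 co-chaperone of Hsp70, went from 11.40 to 13.12, 3.29-fold higher, with 1.08 at the other probe set. Of these 4 genes, 3 had another probe set with a ratio of more than 1.

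Several other genes with high ratios have known parts in fuel use, epithelia or blood cells. Pdk4 inactivates pyruvate dehydrogenase and so spares glucose. Its signals were 9.98 and 11.64, 3.15-fold higher. Hilpda, a lipid droplet protein that inhibits the lipase Atgl, had signals of 7.82 and 9.44, 3.06-fold higher. Tff3, a trefoil peptide secreted by mucous epithelia, had 8.38 and 10.08, 3.25-fold higher. Ifi27l2b, named for its likeness to an interferon-induced gene, had 7.36 and 9.03, 3.19-fold higher. Ms4a4b, a membrane protein of T cells, had 6.54 and 8.17, 3.08-fold higher. Tubb2a, a beta tubulin, had 10.00 and 11.53, 2.88-fold higher, with 0.50 at its other probe set.

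The remaining genes of the 15 with the highest measured ratios were dim on the WT array. Adam15, a membrane metalloprotease, had signals of 6.21 and 7.96 (3.36-fold). Rap1gap, which switches off the small GTPase Rap1, had 6.39 and 8.03 (3.11-fold). The collagen chain gene Col5a2 had 6.64 and 8.20 (2.97-fold). Meg3, an imprinted long non-coding RNA, had 6.82 and 8.37 (2.94-fold), but its other probe sets gave ratios of at least 0.66, at least 0.47, -0.74 and 0.27. Tmem71 had 6.97 and 8.48 (2.86-fold). The WT signals of these 5 genes, and that of Ms4a4b above, lay within 1 log2 unit of the floor of 6.17, where the spread of ratios is widest.

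The lower genes had smaller ratios. Srebf1 was the brightest of them: it encodes the sterol regulatory element binding protein that drives fatty acid synthesis genes and is itself induced by insulin. Its log2 signal was 12.97 on the WT array and 11.21 on the array labelled LASS2-/-, 3.38-fold lower, at 1 probe set. Gas1, a membrane protein linked to growth arrest and hedgehog signalling, went from 10.02 to 8.32, 3.25-fold lower, with -1.43 at the other probe set. Mme (neprilysin), a peptidase of the cell surface, went from 10.98 to 9.65, 2.52-fold lower, with -1.60 at the other probe set. Setd4, a SET domain methyltransferase, went from 8.33 to 6.52, 3.50-fold lower, with -1.36 and -1.03 at its other probe sets. For Gas1, Mme and Setd4 every probe set that entered was at least 2-fold lower.

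Other lower genes were read less evenly. The matricellular protein gene Ccn1 (Cyr61), an immediate early gene and target of YAP signalling, had the lowest measured ratio, from 8.82 to 6.86 or 3.91-fold lower. Its other probe sets gave 0.08, -0.04 and at most -0.22, so the value rests on 1 probe set. Gna14, a G protein alpha subunit, went from 8.61 to 7.35 (2.40-fold), with -0.37 and -1.27 at the others. Kcnk5, a potassium channel, went from 9.36 to 8.10 (2.40-fold), with -0.53 at the other. Cep57, a centrosome protein, went from 8.95 to 7.48 (2.77-fold), with -0.39 at the other. Zmym3, a zinc finger protein, went from 7.81 to 6.42 (2.62-fold), with -0.30 and -0.13 at the others.

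Tmem131l (9.17 to 7.86, 2.48-fold), Dnajc18 (8.07 to 6.76, 2.48-fold) and Tatdn1 (9.66 to 8.37, 2.45-fold) each had at least 1 other probe set with a ratio above 0. For Dnajc18 the others gave at least 1.07 and 0.12, and for Tatdn1 at least 1.05, -0.29 and 0.61. The single other probe set of Tmem131l gave 0.24. Myrf (9.92 to 8.56, 2.57-fold), Cnmd (10.52 to 9.17, 2.55-fold) and Rgs9 (8.27 to 6.74, 2.88-fold) were read by 1 probe set each. Rgs9 speeds the shut-off of G protein signals, Myrf is a membrane-bound transcription factor and Cnmd is chondromodulin. Ss18l1, a subunit of neuronal chromatin remodelling complexes, went from 8.69 to 6.14, which is under the floor, and was at least 5.33-fold lower, while its other probe set gave -0.01.

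Over the 15 highest genes, 5 had other probe sets and 4 of those had all of them on the same side of 0. Over the 15 lowest, 11 had others and 7 had all of them on the same side. Across all 2-fold higher genes, 45 had 54 other probe sets, of which 36 (66.7%) had a ratio of the same sign and 20 (37.0%) were 1.5-fold the same way. Across the 2-fold lower genes, 22 had 35 others, of which 21 (60.0%) had the same sign and 8 (22.9%) were 1.5-fold the same way. Over all genes with several probe sets these shares were 59.0% and 7.22%. Probe sets of a gene share the arrays and are a technical repeat, not a replicate.

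The arrays on HFD share no array with those on chow, and their values stand here for the named genes only. Of the 15 highest genes on chow, 12 had a genotype ratio above 0 on HFD and 2 were again at least 2-fold higher: Marco with a log2 ratio of 3.08 and Tff3 with at least 1.67. Egr1 and Btg2 had ratios of 0.11 and -0.03 on HFD. Of the 15 lowest, 9 had a ratio under 0 on HFD, none was again 2-fold lower, and Tatdn1 was 2-fold higher. Kcnk5 came nearest, at 1.99-fold lower, while Srebf1 had a log2 ratio of -0.56 and Mme 0.84. The difference between diets was not tested.

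**Figure D2:**
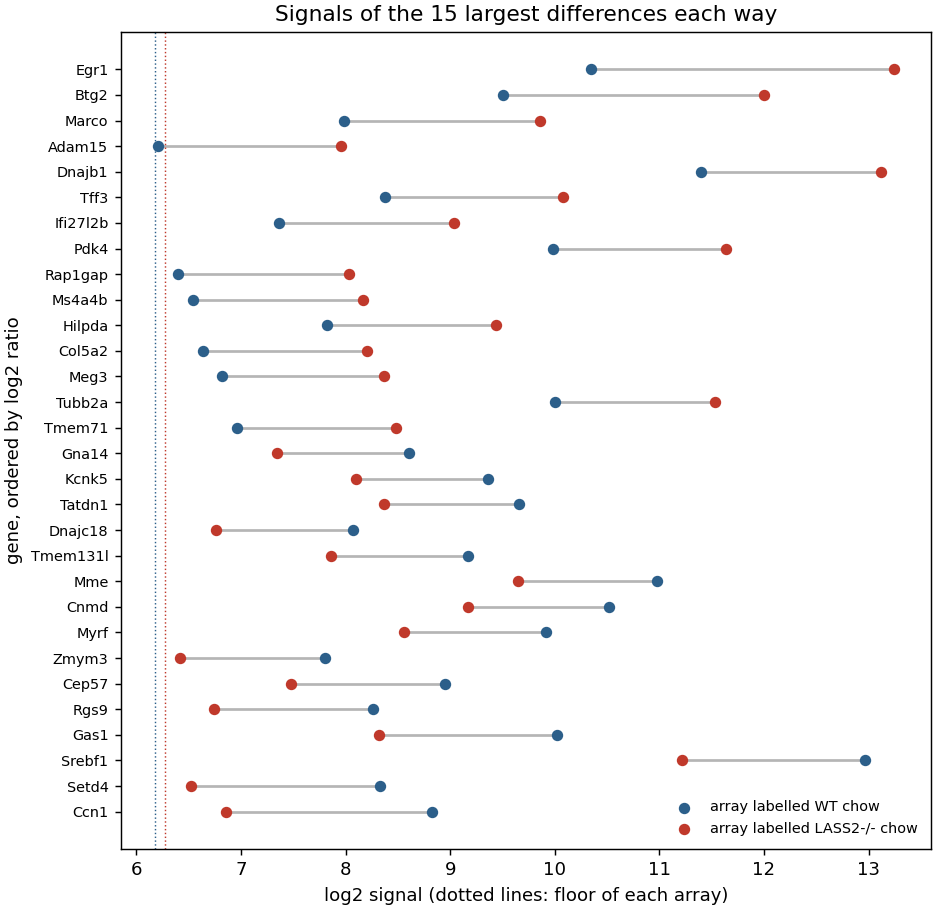
Log2 signal (x axis) of the named genes on the WT chow array and on the array labelled LASS2-/- chow, 1 point for each array and gene, blue for WT and red for LASS2-/-, with the floors dotted. Egr1 spans 10.35 to 13.24 and Srebf1 12.97 to 11.21, while genes such as Adam15 start near the floor.

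Immediate early genes, which are switched on without new protein synthesis, had the highest median of the gene lists described here. Of 25 listed genes 24 entered; the median log2 ratio was 0.42 against 0.01 for all genes, 20 were above 0, 8 were at least 1.5-fold higher (4 of them 2-fold) and none was 1.5-fold lower, where 6.02% and 3.55% of all genes were. Besides Egr1 and Btg2, Egr2 went from 5.33, under the floor, to 7.72 and was at least 2.91-fold higher. Dusp6, the phosphatase that switches off ERK, went from 11.89 to 12.91, 2.02-fold higher. The AP-1 members Fosl2 (8.46 to 9.25, 1.73-fold) and Fos (8.30 to 8.92, 1.54-fold), Atf3 (7.60 to 8.42, 1.77-fold) and Klf6 (7.82 to 8.55, 1.65-fold) were the others past 1.5-fold. Jun had a ratio of 0.46, Junb 0.01 and Klf4 -0.16, so members of the AP-1 and Klf families differed among themselves. Ccn1, itself known as an immediate early gene, was lower at 1 of its probe sets, as given above.

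A serum response element (CArG box), the binding site of serum response factor, was searched by name in the RefSeq promoter windows (GRCm38.p6), each of 250 bases before and 50 after a gene's start, on both strands. This search was added after the ratios had been seen. Of 20 immediate early genes with a window, 2 (10%) held the box in any window, Egr2 and Zfp36. It was in 148 of the 9596 genes that entered and had a window (1.54%), and in 535 of all 32851 windows (1.63%). Of 112 genes with a window among those 2-fold higher, 5 held it (4.46%). The Egr2 window at chr10:67537619-67537918 (plus strand) is shown because Egr2 was the only member past 1.5-fold with the box there; it is 1 of several RefSeq start sites of the gene. Capitals mark the box, which starts 72 bases before the start site.
Egr2: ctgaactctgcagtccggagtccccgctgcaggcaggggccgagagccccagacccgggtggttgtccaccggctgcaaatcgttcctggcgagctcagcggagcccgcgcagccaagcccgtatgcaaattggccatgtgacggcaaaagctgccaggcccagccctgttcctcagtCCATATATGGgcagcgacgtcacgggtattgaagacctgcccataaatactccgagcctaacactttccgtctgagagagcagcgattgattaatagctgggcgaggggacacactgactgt

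The p53 target and growth arrest list overlapped the early genes through Btg2. Of its 18 members that entered, 4 (22.2%) were at least 1.5-fold higher and 1 (5.56%) was lower, with a median of 0.12. Over all genes these shares were 6.02% and 3.55%. Gadd45b (6.40 to 7.29, 1.86-fold, with 0.22 at its other probe set) and Gadd45a (8.25 to 8.98, 1.66-fold), which act in stress signalling and DNA repair, were higher, as was the cell cycle inhibitor Cdkn1c (1.51-fold). Sesn1 was lower (9.50 to 8.49, 2.01-fold), but its other probe sets gave -0.01 and -0.35. The central p53 targets Cdkn1a and Mdm2 each had a ratio of 0.31.

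**Figure D3:**
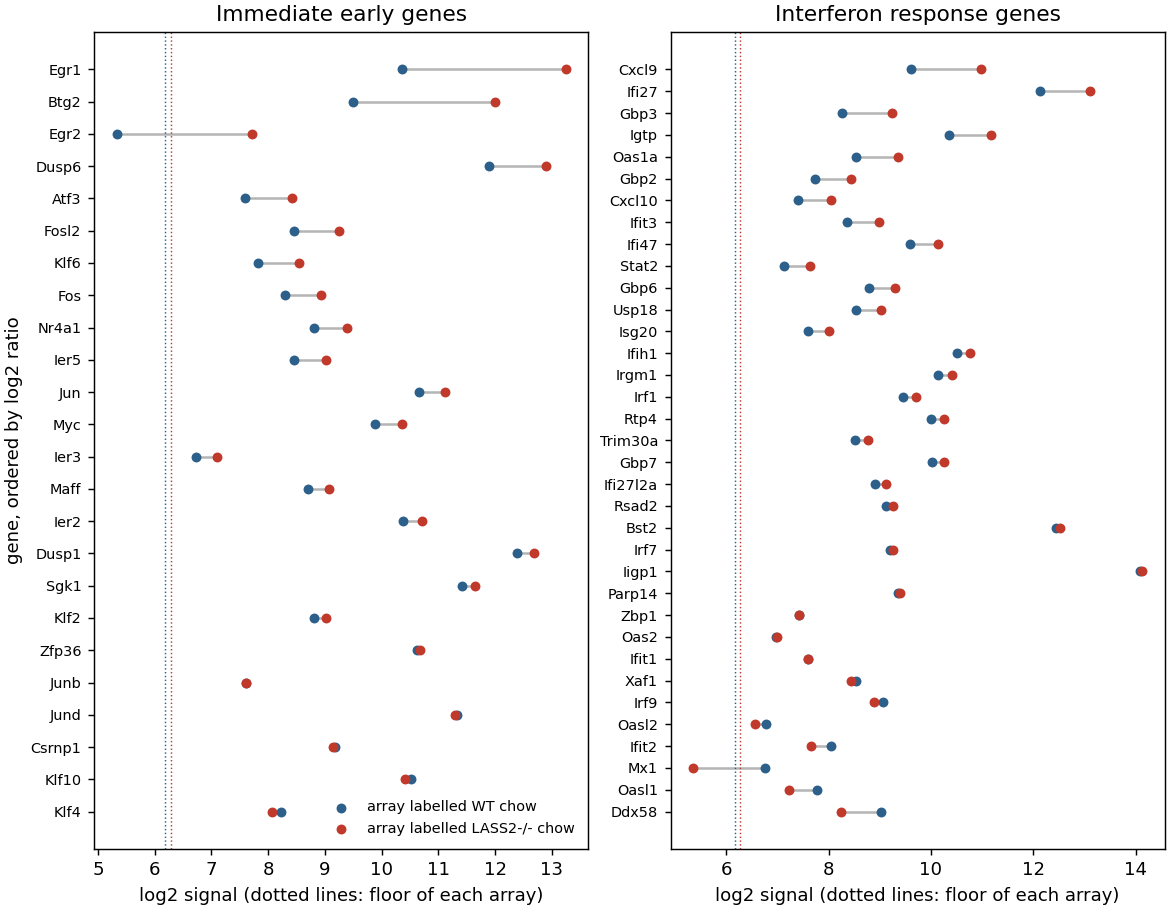
Log2 signal (x axis) on the array labelled WT chow (blue) and on that labelled LASS2-/- chow (red) of each member of the immediate early list (left) and of the interferon response list (right) that entered, ordered by ratio, with each array's floor dotted. The red point lies to the right for 20 of 24 early genes and for 28 of 35 interferon genes.

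Genes induced by interferons, the cytokines of antiviral and antibacterial defence, were mostly higher by small amounts. Of 35 members that entered, 28 were above 0 and the median was 0.25. At least 1.5-fold higher were 8 (22.9%, 1 of them 2-fold) and 1 (2.86%) was lower, against 6.02% and 3.55% of all genes. The chemokine gene Cxcl9, a target of interferon gamma, went from 9.60 to 10.97, 2.58-fold higher, with 0.43 at its other probe set. Ifi27 went from 12.12 to 13.10 (1.97-fold). The GTPase genes Gbp3 (8.27 to 9.23, 1.94-fold), Igtp (10.36 to 11.18, 1.76-fold) and Gbp2 (7.73 to 8.45, 1.64-fold, with 0.26 at its other probe set) are likewise known targets of interferon gamma. Oas1a, which activates RNase L on double-stranded RNA, went from 8.54 to 9.35 (1.75-fold). Cxcl10 (7.40 to 8.04) and Ifit3 (8.35 to 8.99) were each 1.56-fold higher.

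Not all interferon genes followed. Ddx58, which encodes the RNA sensor RIG-I, went from 9.03 to 8.25, 1.72-fold lower, and Oasl1 from 7.77 to 7.23, a ratio of -0.54. Ifit2 had a ratio of -0.39 and Mx1 at most -0.48. Ifit1 (0.01), Oas2 (0.02) and Irf7 (0.06) had almost the same signal on both arrays. The 8 members past 1.5-fold were 3 GTPase genes, 2 Cxcl chemokine genes, Ifi27, Oas1a and Ifit3. Several other antiviral effectors did not reach 1.5-fold, and neither did the GTPase genes Irgm1 (0.26) and Gbp7 (0.23).

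The interferon stimulated response element, to which the STAT and IRF factors bind, was searched in the same windows as GAAA, any 2 bases, GAAA on both strands. It was in 15 of 25 members with a window (60.0%), in 6 of the 7 members with a window that were 1.5-fold higher and also in Ddx58, which was lower. Genes that entered and had a window held it in 3.74% (359 of 9596). All windows held it in 3.44% (1131 of 32851), and genes 2-fold higher on this array in 2.68% (3 of 112). The windows of the 3 higher members with the largest ratios among those holding the element are shown, with the element in capitals. Gbp3 is at chr3:142559794-142560093 (plus strand), where the element starts 45 and 39 bases before the start site in overlapping copies. Igtp is at chr11:58199306-58199605 (plus strand), where the element starts 34 bases before. Oas1a is at chr5:120907476-120907775 (minus strand), where overlapping copies start 20 and 14 bases before. On Gbp3 the element lies on the other strand and reads as TTTC. A match is a description of the letters and not of binding.
Gbp3: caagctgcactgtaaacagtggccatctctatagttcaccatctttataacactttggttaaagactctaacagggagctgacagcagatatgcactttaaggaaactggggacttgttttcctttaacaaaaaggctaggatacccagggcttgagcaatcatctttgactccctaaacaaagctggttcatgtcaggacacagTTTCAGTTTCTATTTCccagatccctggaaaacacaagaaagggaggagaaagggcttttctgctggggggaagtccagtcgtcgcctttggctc
Igtp: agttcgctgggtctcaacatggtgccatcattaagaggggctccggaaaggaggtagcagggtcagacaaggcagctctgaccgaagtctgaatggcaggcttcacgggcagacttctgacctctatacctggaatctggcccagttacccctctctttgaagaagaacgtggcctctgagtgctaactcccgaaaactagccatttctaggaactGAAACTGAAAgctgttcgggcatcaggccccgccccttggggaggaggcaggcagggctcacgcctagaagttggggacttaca
Oas1a: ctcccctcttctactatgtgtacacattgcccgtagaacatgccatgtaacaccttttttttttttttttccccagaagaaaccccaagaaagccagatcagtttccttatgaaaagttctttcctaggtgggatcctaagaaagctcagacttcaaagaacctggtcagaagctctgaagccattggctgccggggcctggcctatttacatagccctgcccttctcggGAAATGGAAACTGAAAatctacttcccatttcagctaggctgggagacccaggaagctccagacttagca

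Genes of antigen presentation, and chemokine and recruitment genes, were mostly higher too. All 7 MHC class II genes that entered, which present peptides to CD4 T cells, had a ratio above 0, with a median of 0.29, though none reached 1.5-fold. H2-Ab1 went from 9.48 to 10.03, H2-Aa from 11.54 to 12.05 and H2-Eb1 from 10.03 to 10.51. Of 14 chemokines and recruitment genes, 11 were above 0 and the median was 0.29. At least 1.5-fold higher were 5 (35.7%, against 6.02% of all genes), 4 of them 2-fold. Of the 14 genes, 12 were measured on both arrays. Of these 5, Cxcl9 and Cxcl10 are also members of the interferon list and are given above. Ccl5, which draws T cells, went from 7.63 to 9.03 (2.64-fold), and Ccl8 from 6.06, under the floor, to 7.27 (at least 2.14-fold). The monocyte receptor gene Ccr2 went from 6.34 to 7.39 (2.08-fold), but its other probe sets gave -0.02 and -0.28.

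Marker genes of immune cells were somewhat brighter on the array labelled LASS2-/-. All 28 Kupffer cell and macrophage markers entered; 22 were above 0, with a median of 0.22, and their summed linear signal was 58183 on the WT array and 65633 on the array labelled LASS2-/-, a ratio of 1.13. Marco and the macrophage perforin gene Mpeg1 (11.54 to 12.15, 1.53-fold) were past 1.5-fold, 7.14% of the list and near the 6.02% of all genes, and Cd68 had a ratio of 0.55. The resident Kupffer cell markers Clec4f (10.66 to 10.91, 0.25) and Vsig4 (0.20) and the general marker Adgre1 (0.19) were close to the median, while Timd4 (-0.51) and Cd163 (10.20 to 9.67, -0.53) were lower. In RNA of whole liver, more or fewer cells of a type and more or less RNA per cell cannot be told apart.

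Of 22 T and NK cell markers, 11 entered. Their median was 0.23 and 4 were at least 1.5-fold higher, 36.4% against 6.02% of all genes. These were Cd8a (6.41 to 7.32, 1.88-fold), Gzma (5.16 to 6.99, at least 1.76-fold), Prf1 (1.53-fold) and Nkg7 (1.52-fold). Of the 11 markers, 6 were measured on both arrays. Gzma entered through the array labelled LASS2-/- alone, so it could count only as higher. Cd8a and Gzma lie in the dimmest of the 4 groups of genes, whose median ratio was 0.12. With equal array medians the median of the list was 0.13. Cd3g was at least 1.79-fold lower, and Cd3e, Cd4, Cd8b1, Thy1, Cd2, Gzmb and Ncr1 were under the floor on both arrays. The summed linear signal of those that entered was 914.6 and 1113.7, a ratio of 1.22. Of 7 B and plasma cell markers, 4 were above 0, the median was 0.19 and the summed signal had a ratio of 1.08; Blnk was 1.55-fold higher and Mzb1 had a ratio of -0.57. The summed endothelial markers had a ratio of 1.05. The 6 neutrophil markers that entered had a summed ratio of 1.15, and 0.803 without S100a8 and S100a9; Csf3r among them was at least 1.69-fold lower (7.04 to 5.90). The part of these markers in the interferon, MHC class II and chemokine values was not tested.

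Lipid-associated macrophage genes had a median of 0.17 over 11 members. Of these, 3 (27.3%, against 6.02% of all genes) were at least 1.5-fold higher and none was lower. Lpl, which frees fatty acids from circulating lipoproteins and is low in the normal adult liver, went from 9.09 to 10.22 (2.18-fold), with 1.54 at its other probe set. Plin2, the main coat protein of liver lipid droplets, went from 13.77 to 14.43 (1.57-fold), and Lgals3 from 8.93 to 9.53 (1.51-fold). Plin2 and Lpl are also expressed by other cells of fatty tissue, so the list does not mark macrophages alone. Of 10 adipocyte markers 6 entered, with a median of 0.35, and the droplet protein gene Cidec (6.35 to 7.08, 1.66-fold) and Fabp4 (9.45 to 10.13, 1.60-fold) were past 1.5-fold. That is 33.3% of those that entered, against 6.02% of all genes. The summed signal of those markers, to which Car3 gives the most, had a ratio of 0.885, the opposite direction to the median.

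Chaperones and stress genes formed another group of small positive ratios. All 31 genes of the endoplasmic reticulum and unfolded protein response list entered, 28 were above 0 and the median was 0.19; 2 (6.45%) were at least 1.5-fold higher, near the 6.02% of all genes, and none was lower. Creld2, a secreted disulfide isomerase-like protein, went from 12.007 to 13.003 (1.99-fold) and Sdf2l1, a partner of BiP, from 10.93 to 11.60 (1.60-fold). Manf (13.01 to 13.58) and Syvn1 (11.85 to 12.41), the ubiquitin ligase of ER-associated degradation, were each 1.48-fold higher. Hspa5, which encodes BiP, the master chaperone of the compartment, went from 14.54 to 15.04 (1.41-fold), with 0.43 and 0.63 at its other probe sets. Xbp1, a transcription factor of this response, had a ratio of 0.19, and Derl2 had -0.21.

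The endoplasmic reticulum stress element, through which Atf6 and Xbp1 act with NF-Y, was searched as CCAAT, any 9 bases, CCACG on both strands. It was in 10 of 26 members with a window (38.5%), against 16 of the 9596 genes that entered and had a window (0.167%). Of all 32851 windows 39 held it (0.119%), and none of the 112 genes with a window among those 2-fold higher did. The windows of the 3 members with the largest ratios among those holding it are shown, with the element in capitals: Creld2 at chr15:88819396-88819695 (plus strand), where it starts 126 bases before the start site; Syvn1 at chr19:6046326-6046625 (plus strand), 44 bases before; and Hspa5 at chr2:34771840-34772139 (plus strand), 65 bases before. The Creld2 element lies on the other strand, so its letters read in reverse complement.
Creld2: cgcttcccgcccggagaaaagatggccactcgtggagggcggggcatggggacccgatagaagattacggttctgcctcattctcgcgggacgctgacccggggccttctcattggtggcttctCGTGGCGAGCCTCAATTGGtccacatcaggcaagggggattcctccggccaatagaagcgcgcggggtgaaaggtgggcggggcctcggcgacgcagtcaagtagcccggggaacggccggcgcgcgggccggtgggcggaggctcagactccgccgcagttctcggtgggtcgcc
Syvn1: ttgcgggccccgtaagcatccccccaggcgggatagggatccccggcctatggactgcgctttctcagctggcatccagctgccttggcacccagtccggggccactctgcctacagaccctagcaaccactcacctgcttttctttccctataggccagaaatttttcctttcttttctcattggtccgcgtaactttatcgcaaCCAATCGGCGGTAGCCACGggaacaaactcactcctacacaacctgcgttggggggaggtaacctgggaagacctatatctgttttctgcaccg
Hspa5: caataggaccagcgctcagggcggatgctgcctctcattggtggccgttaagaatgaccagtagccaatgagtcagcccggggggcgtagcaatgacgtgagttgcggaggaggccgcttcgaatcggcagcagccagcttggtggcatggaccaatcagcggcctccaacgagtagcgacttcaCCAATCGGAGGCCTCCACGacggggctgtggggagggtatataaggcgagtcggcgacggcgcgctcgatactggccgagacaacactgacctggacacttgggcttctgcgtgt

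The integrated stress response, in which phosphorylated eIF2 raises the translation of Atf4, had larger ratios in a few members. Of 22 that entered, 17 were above 0 and the median was 0.13. At least 1.5-fold higher were 5 (22.7%, 4 of them 2-fold) and 1 (4.55%) was lower, against 6.02% and 3.55% of all genes. The serine synthesis enzyme gene Phgdh went from 5.69 to 7.94 (at least 3.40-fold) and the asparagine synthetase gene Asns from 5.16 to 7.61 (at least 2.70-fold), both from under the floor. Their other probe sets gave at least 0.23 for Phgdh and at least 0.77 for Asns. Fgf21, a hormone that liver secretes in fasting and amino acid shortage, went from 7.44 to 8.74 (2.46-fold). Ddit3 (CHOP) went from 8.49 to 9.59 (2.14-fold), but its other probe set gave 0.09. Atf4 itself had 11.33 and 11.39, and the amino acid transporter gene Slc7a5 was at least 1.72-fold lower. Of the 22 members, 18 were measured on both arrays. Phgdh and Asns entered through the array labelled LASS2-/- alone and could count only as higher. Slc7a5 entered through the WT array alone and could count only as lower. The median was 0.36 with the mean of a gene's probe sets and 0.02 with equal array medians.

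Heat shock genes, of the cytosol and of mitochondria, had small positive ratios. Of 18 that entered, 17 were above 0, the median was 0.25, and Dnajb1 and the small heat shock protein gene Hspb1 (11.13 to 11.97, 1.79-fold) were past 1.5-fold, with no member 1.5-fold lower. The share 1.5-fold higher was 11.1%, against 6.02% of all genes. Hsph1 (12.46 to 13.02, 1.47-fold) and Hsp90aa1 (14.28 to 14.81, 1.44-fold) came next. The mitochondrial chaperone genes Hspd1 and Hspe1 each had 0.14. The inducible Hsp70 gene Hspa1a was the exception, at -0.32. A heat shock element, searched as GAA, 2 bases, TTC, 2 bases, GAA, was in 3 of 14 members with a window (21.4%), but in neither Dnajb1 nor Hspb1. Genes that entered and had a window held it in 0.604%, and all windows in 0.603%.

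**Figure D4:**
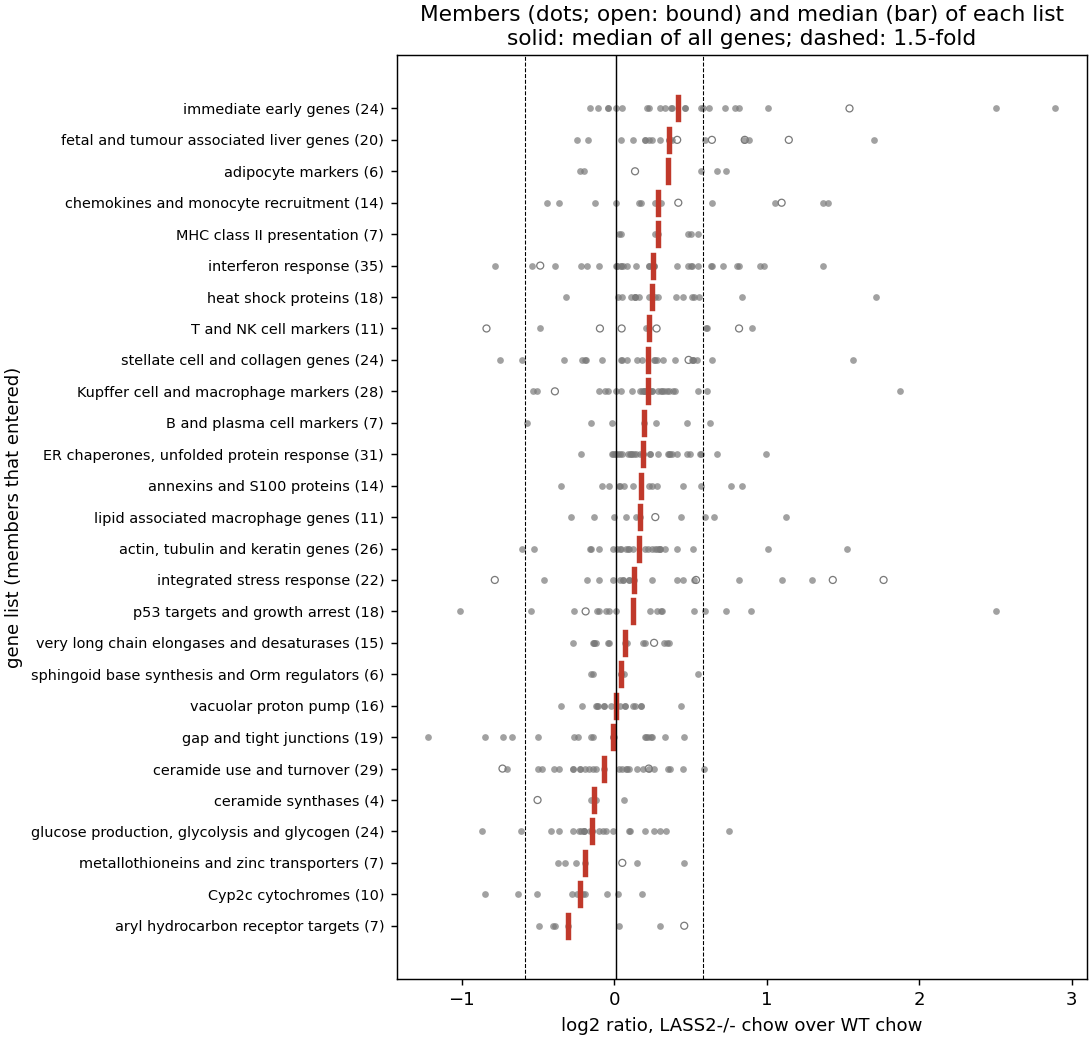
Log2 ratio (x axis) of the members of each list described, 1 point a gene and open points for bounds, with the list's median as a red bar, the median of all genes (0.01) as a solid line and 1.5-fold as dashed lines. Medians run from -0.30 for aryl hydrocarbon receptor targets to 0.42 for immediate early genes; with equal array medians every ratio shifts down, and the small positive medians of sphingoid base synthesis, elongases and the proton pump lie below 0.

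The lipid pathway that Cers2 serves differed little. Of 6 ceramide synthase genes, 4 entered and none was 1.5-fold apart. Cers4 went from 6.78 to 6.05, under the floor, and was at least 1.42-fold lower, Cers5 had 8.14 and 8.20, and Cers6 had 9.97 and 9.86. Cers3 was under the floor on both arrays, and no probe set used here carries the name Cers1. On HFD the ratios were 0.07 for Cers2, -0.77 for Cers4, 0.46 for Cers5 and -0.31 for Cers6.

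Upstream, 6 of 12 genes of sphingoid base synthesis and its Orm regulators entered, with a median of 0.04 and none 1.5-fold apart. Sptlc2, a catalytic subunit of serine palmitoyltransferase, went from 8.16 to 8.72 (0.55), and the desaturase gene Degs1, whose enzyme makes ceramide from dihydroceramide, had 12.22 and 12.26. Sptssa had a ratio of -0.14 and Ormdl1 -0.15. Downstream, the 29 genes of ceramide use and turnover had a median of -0.07, with 14 above 0. Past 1.5-fold were 3.45% higher and 6.90% lower, against 6.02% and 3.55% of all genes. B4galt5, a lactosylceramide synthase, was at the 1.5-fold threshold (9.96 to 10.55, higher). The sphingosine kinase gene Sphk2 was 1.62-fold lower (8.75 to 8.05) and the neutral sphingomyelinase gene Smpd3 at least 1.66-fold lower (7.01 to 6.20). The other probe set gave at least 0.13 for Smpd3 and at least 0.25 for B4galt5, so neither call holds at both of its probe sets. Samd8 (-0.50), Galc (-0.47) and the ganglioside synthase gene St3gal5 (0.45) lay under 1.5-fold.

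The very-long-chain acyl-CoAs that Cers2 uses come from the elongases. None of 15 elongase and desaturase genes was 1.5-fold apart; their median was 0.07, with Elovl3 lowest at -0.27 and Scd2 highest at 0.36. Elovl1, which elongates saturated acyl chains to the lengths that Cers2 prefers, went from 10.54 to 10.86 (0.33), and Fads2 had 0.34. None of 16 vacuolar proton pump subunits was 1.5-fold apart, with a median of 0.01 and a range from -0.35 for Atp6v1h (11.60 to 11.26) to 0.44 for Atp6v0d2. The c subunit gene Atp6v0c has no named probe set here. The sphingoid base, elongase and pump medians are so near 0 that their sign turns with equal array medians, to -0.06, -0.03 and -0.09, where all genes have -0.09.

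Junction genes past 1.5-fold were all lower. Of 19 gap and tight junction genes, 4 (21.1%) were at least 1.5-fold lower, against 3.55% of all genes, and none was higher. The median of the list was -0.01. All 4 belong to tight junctions: Marveld2 (tricellulin, 7.68 to 6.46, 2.33-fold), the scaffold gene Tjp3 (7.79 to 6.94, 1.80-fold), Ocln (occludin, 9.57 to 8.84, 1.65-fold, with -0.75 at its other probe set) and Cgn (cingulin, 8.46 to 7.79, 1.59-fold), which is also a neighbour of Cers2. Cldn1 had 9.76 and 9.26, 1.42-fold lower. The connexin genes differed less: Gjb1 had 11.37 and 11.23, Gjb2 12.67 and 12.87 and Gja1 9.51 and 9.73, with Gja4 at 0.46.

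Srebf1 is a member of the lipogenesis list, whose median of -0.13 over 25 genes did not meet the rule for a full account. Of them 3 (12%) were at least 1.5-fold lower and 1 (4%) higher, against 3.55% and 6.02% of all genes. Besides Srebf1 the lower ones were Acaca (11.04 to 10.33, 1.63-fold) and Fasn (13.75 to 13.13, 1.55-fold), named here after their values were seen. These enzymes carry out the first committed step and the chain building of fatty acid synthesis. Other members did not share this: Scd1 had a ratio of 0.07, Elovl5 0.19, Thrsp -0.05 and Elovl6 -0.13, and at its other probe set Acaca had -0.10.

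Genes of glucose and glycogen metabolism had a median of -0.14 over 24 members, of which 7 were above 0. Past 1.5-fold were 8.33% lower and 4.17% higher, against 3.55% and 6.02% of all genes. The glycogen-targeting subunits of protein phosphatase 1, which promote glycogen storage, were lower: Ppp1r3c went from 10.49 to 9.63 (1.82-fold) and Ppp1r3b from 12.69 to 12.08 (1.52-fold). Pck2, the mitochondrial form of phosphoenolpyruvate carboxykinase, was 1.69-fold higher (6.86 to 7.61). The cytosolic form Pck1 had a ratio of 0.30, and the liver pyruvate kinase gene Pklr had -0.42.

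Among genes of foreign compound metabolism, the Cyp2c cytochromes had a median of -0.22 over 10 members, of which 2 were above 0. Cyp2c37 went from 13.26 to 12.41 (1.80-fold lower), Cyp2c55 from 7.85 to 7.22 (1.55-fold lower) and Cyp2c29, the brightest of the 3, from 15.12 to 14.61 (1.42-fold lower). The share 1.5-fold lower was 20%, against 3.55% of all genes, and no member was 1.5-fold higher. The Cyp2c genes are close copies and a probe set may read several, so their values are not independent. Targets of the aryl hydrocarbon receptor had the lowest median described, -0.30 over 7 members, with none 1.5-fold apart. Nqo1 had -0.49, Tiparp -0.40, Cyp1a2 -0.30 (13.78 to 13.48) and the receptor gene Ahr -0.39 (10.82 to 10.43), while Cyp1a1 had at least 0.46. Without a filter on signal this median was 0.03.

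The 7 metallothionein and zinc transporter genes had a median of -0.19, with 3 above 0 and none 1.5-fold apart. The metal-binding proteins Mt1 and Mt2 had 12.31 and 12.06, and 10.93 and 10.73. The exporters Slc30a1 and Slc30a10 had ratios of -0.32 and -0.37, and the importer Slc39a4 had 0.46. The sign of this median rests on the choice of probe sets: it was 0.04 with the mean of a gene's probe sets.

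Genes of matrix, cytoskeleton and immature liver were mostly higher. The stellate cell and collagen list had a median of 0.22 over 24 members, with 17 above 0, but a summed linear signal in a ratio of only 1.02. Past 1.5-fold were 8.33% of the list each way, against 6.02% higher and 3.55% lower over all genes. Col5a2 and the basement membrane gene Col4a1 (8.61 to 9.25, 1.56-fold) were at least 1.5-fold higher. Acta2, the smooth muscle actin of activated stellate cells (8.39 to 7.79, 1.52-fold), was lower. Col6a2 was 1.68-fold lower at the probe set used (7.15 to 6.40), but its other probe set gave at least 0.74, so it has no settled direction. The fibrillar collagen genes Col1a1 (at least 0.49), Col1a2 (0.55) and Col3a1 (0.52) stayed under 1.5-fold. Of 26 actin, tubulin and related genes, 20 were above 0, with a median of 0.17. Past 1.5-fold were 7.69% higher and 3.85% lower, near the 6.02% and 3.55% of all genes. Tubb2a and the cytoplasmic actin gene Actg1 (12.28 to 13.28, 2.01-fold) were 2-fold higher, and Tpm2 had -0.53.

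Genes that mark the fetal or tumour-bearing liver had a median of 0.36 over 20 members, the second highest among the lists described in full. Of them 18 were above 0, and 7 (35%, against 6.02% of all genes) were at least 1.5-fold higher, with none lower. After Tff3 came the long non-coding RNA Pvt1 (3.93 to 7.32, at least 2.21-fold, with -0.12 at its other probe set), the Golgi protein gene Golm1 (6.84 to 7.73, 1.85-fold), the progenitor and duct transcription factor gene Sox9 (6.47 to 7.32, 1.81-fold) and the fetal growth factor gene Igf2 (3.55 to 7.03, at least 1.81-fold). Akr1c18 was at least 1.56-fold higher, and Lgals3 is given above. Pvt1, Igf2 and Akr1c18 entered through the array labelled LASS2-/- alone, so they could count only as higher. Of the 20 members, 16 were measured on both arrays. Most of these signals are dim. The classical markers Afp and Gpc3 did not enter.

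Of 14 annexin and S100 genes, which encode calcium-binding proteins, 11 were above 0, with a median of 0.18. S100a8 (7.48 to 8.32, 1.79-fold) and S100a9 (6.99 to 7.75, 1.70-fold), whose proteins form calprotectin of neutrophils and monocytes, were the members past 1.5-fold. They made up 14.3% of the list, against 6.02% of all genes that were 1.5-fold higher. Anxa6 was 1.48-fold and Anxa1 1.37-fold higher. S100a8 and S100a9 are also members of the neutrophil list, whose other 4 members that entered had a summed signal in a ratio of 0.803.

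The genes next to Cers2 on chromosome 3 were read separately. Of the 50 genes with a named probe set on each side, 73 entered, with a median ratio of 0.10. The bounds of Sv2a (6.18 to 3.50, ratio 0.10) and 4930481B07Rik (6.25 to 5.29, ratio 0.03) lay above 0 only because the floors differ. At least 1.5-fold apart were 7 higher and 5 lower, 16.4% of them against 9.57% of all genes, and at least 2-fold apart were 2.74% against 1.67%. The 2-fold genes were Lce3b (7.50 to 8.83, 2.51-fold higher), an epidermal envelope gene, and Rfx5 (8.17 to 7.11, 2.10-fold lower), a factor for MHC class II transcription. The other higher ones were Mcl1 (11.81 to 12.65, 1.78-fold, with 0.16 to 0.48 at its other probe sets), Ctsk (1.74-fold), Ciart (1.73-fold), BC028528 (1.61-fold), Txnip (12.24 to 12.93, 1.61-fold) and Pias3 (1.51-fold). Rprd2 (1.69-fold), Cgn (1.59-fold), Vps72 (1.55-fold) and Otud7b (1.54-fold) were the other lower ones. The share of genes 2-fold apart was 2.20% over the 590 genes of chromosome 3, and over all chromosomes it ran from 0.779% on chromosome 16 to 3.16% on chromosome 19.

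**Figure D5:**
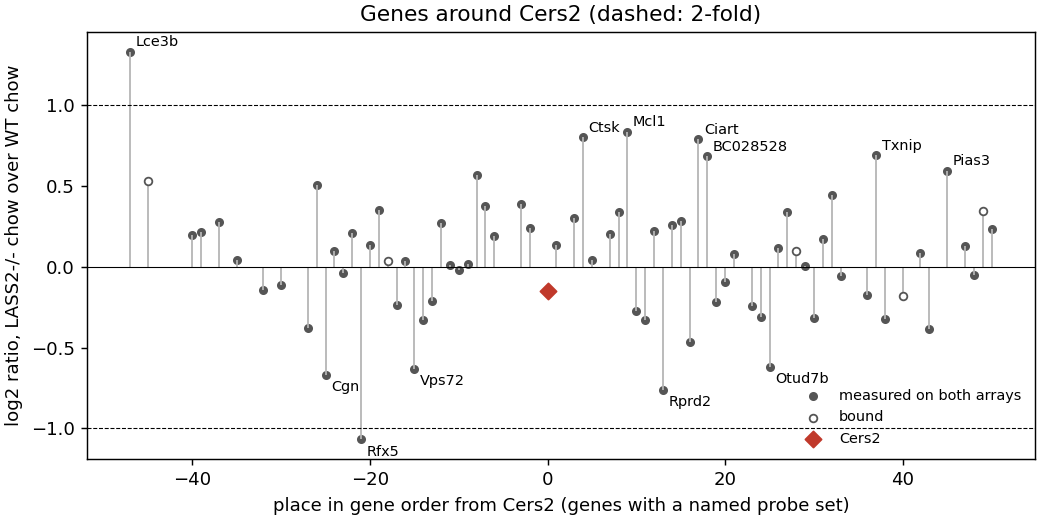
Log2 ratio (y axis) of the named genes on each side of Cers2 that entered, by their order along chromosome 3 (x axis, in genes from Cers2), 1 point a gene, with dashed lines at 2-fold and open points for bounds. Lce3b at 2.51-fold higher and Rfx5 at 2.10-fold lower are the points past 2-fold.

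The other 40 of the 67 lists did not meet the rule for a full account. In the 36 of them with at least 5 members that entered, the median ran from -0.13 for lipogenesis to 0.15 for peroxisomal and omega oxidation. These include bile acid synthesis, cholesterol synthesis, complement and coagulation, the respiratory chain, the urea cycle and the pericentral genes, which make up much of the work of hepatocytes. In bile acid synthesis, the urea cycle list, the glucuronosyltransferases, the respiratory chain, and complement and coagulation, no member that entered was 1.5-fold apart. Pancreatic acinar, cholangiocyte, erythroid and skeletal muscle markers had under 5 members that entered and are not described.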

How the data were processed

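Liver RNA was hybridised to Affymetrix 3' arrays. The authors deposited log2 signals for 45037 probe sets, made with MAS5 per the submitters' processing notes. The sources used here give neither its version nor its scaling target. No scaling was added. Names came from the platform annotation and RefSeq (GRCm38.p6): 34945 probe sets had 1 symbol, 932 had several and 9160 had none, and 34741 were matched by gene number. A gene took the probe set with the highest mean over all 4 arrays among those at or above the median of at least 1 chow array.

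Named are Cers2, the 15 genes per direction with the largest ratios of at least 2-fold on measured signals, bounds of at least 4-fold, and up to 4 members and the defining members of each list described; clone names were left out. A list was described for a known role of Lass2, for a median at least 0.15 from that of all genes with at least 5 members, or for at least 20% and 3 members 1.5-fold apart one way. Of 1335 listed genes, 1075 entered. The members and lists were chosen with earlier results of these data known. Promoter sequences are from RefSeq. The steps were tested on simulated data. The tools were pandas 2.3.3 and numpy 2.4.6 under Python 3.11.15, with matplotlib 3.10.9 for figures.

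Alternatives covered scaling, floor, signal filter, threshold and choice of probe set. Having 1 array a group limits the precision throughout.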

Additional observations from a re-analysis of the deposited data

Results flagged for a closer look

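Tatdn1 had genotype ratios of opposite direction on the diets: the chow arrays gave a log2 ratio of -1.29 and the arrays on high-fat diet gave 1.49, with 1 array in each group. The difference between the diets was not tested. Its other probe sets on chow gave at least 1.05, -0.29 and 0.61, so probe sets of the gene differed within the same arrays.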

How the results depend on the processing

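The main limit is 1 array in each group, and dim genes carry the widest ratios. With equal array medians 96 genes were 2-fold lower, and 468 higher and 668 lower at 1.5-fold. With a floor at the 25th percentile the 2-fold counts were 1165 and 636 and the 1.5-fold counts 2381 and 1508, and without a floor they were 481 and 276, and 1118 and 726. With both arrays at the floor or above, 95 genes were 2-fold higher and 35 lower, and a 1.5-fold threshold gave 714 and 421. The lower floor let 16149 genes enter and the rule for both arrays 10544, against 11862 in the main setting. Counts under those settings are therefore out of other totals. List medians that turned sign were, with equal medians, sphingoid base synthesis (-0.059), elongases (-0.032) and the proton pump (-0.092); with quantile normalization, elongases (-0.0052); with the lower floor, B and plasma cell markers (-0.011); with the mean of probe sets, sphingoid base synthesis (-0.010), elongases (-0.0076), p53 targets (-0.010) and metallothioneins (0.040); without probe sets ending in _x_at or _s_at, the proton pump (-0.085) and metallothioneins (0.054); without a signal filter, ceramide turnover (0.035) and aryl hydrocarbon receptor targets (0.030). Genes that turned sign were Dnajc18 (0.19), Tatdn1 (0.12) and Col6a2 (0.48) with the mean of probe sets, Ccn1 (0.081), Tmem131l (0.24) and Col6a2 (0.74) without those endings, and Ccr2 (-0.28) and Pvt1 (-0.12) with the probe set brightest on chow. The causes were not tested. Of the 31 ranked or 4-fold genes, 31 stayed 2-fold the same way under equal medians, quantile normalization, the lower floor, no floor and no filter, and 23 with the mean of probe sets, where 2 had the opposite sign. Without the _x_at and _s_at endings 29 entered, 23 stayed 2-fold and 2 had the opposite sign. No paired analysis was possible because the labels carry no replicate numbers and each group has 1 array.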
